A study of Mus musculus with 19 samples.

Results

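The 10 genes described here encode the calcium store of the heart muscle cell: the pump Atp2a2, its small membrane regulators Pln, Sln and Strit1, the release unit of Ryr2, Casq1, Casq2, Trdn and Jph2, and the exchanger Slc8a1. They were taken by symbol from a table of 56066 genes, and all 10 passed the filter of 1 TPM, a length-corrected share of each library's transcripts, in at least 3 libraries that left 14812 genes for testing. RNA was sequenced from mouse hearts, wild-type (WT) at postnatal days 1, 7 and 21 (P1, P7, P21) and with a conditional knockout of PDK1 (cKO) at P7 and P21, to follow postnatal maturation with and without this kinase. Groups held 3 P1 WT, 5 P7 WT, 3 P7 cKO, 4 P21 WT and 3 P21 cKO libraries. Of the P21 WT libraries, 2 carry B6, the usual short form of a C57BL/6 background, in their titles. No separate label field gives strain, sex, Cre driver or pooling of animals for these groups, and the design text of the series names P0 where the sample labels give P1. The labels do not say that each library is a separate animal, so p-values measure the spread between these libraries.

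Each heartbeat begins with calcium entry at the cell surface, which opens ryanodine receptors in the sarcoplasmic reticulum and releases stored calcium onto the myofilaments. Relaxation follows when the SERCA pump returns calcium to the store and the sodium-calcium exchanger carries the rest out of the cell. In rodents the store becomes more prominent after birth, while the newborn heart relies more on flux across the surface membrane.

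Libraries differed in ways that touch these genes. All 3 P1 WT libraries, P7 WT libraries 1 and 3, and P21 WT libraries 2 and 3 carry titles with letters (H, heart or B6). The remaining 5 WT libraries and all 6 cKO libraries carry plain numbers, with KO added for the knockouts. Title style was a term of the main limma fit and was not in the ratio tests. A nineteenth library, number 63 at P21, has a cKO genotype label but a title without KO, and it was left out. P1 WT library 3 was low in long transcripts. It was set against the mean of P1 WT libraries 1 and 2. The 352 genes of at least 8000 bases and a mean of at least 5 TPM had a median log2 difference of -0.36, against -0.09 for 9099 shorter genes. The 8 cardiomyocyte markers summed to between 51380 and 63900 TPM over the 18 libraries, and none was under 1 TPM in a group mean. The labels do not say which of 2 genes PDK1 stands for. Pdpk1, which encodes the phosphoinositide-dependent kinase, had 5.35 ± 0.34 TPM (SD, n = 3) in P21 cKO and 6.86 ± 0.63 (n = 4) in P21 WT, with no overlap of libraries and a limma adjusted p of 0.366. Pdk1, a pyruvate dehydrogenase kinase, was higher in P21 cKO (log2 0.36, limma adjusted p = 0.0473). At P7 neither passed. The deleted part and the cell type that carries the deletion are not in the labels, so these values for the whole gene in heart tissue are a weak check of the genotypes.

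The pump regulators are among the shortest proteins of the muscle membrane, and their reading frames show how small the encoded peptides are. The coding sequences of the 3 genes, from GENCODE M21 on mm10, are given on the coding strand with the start and stop codons in capitals.
Pln: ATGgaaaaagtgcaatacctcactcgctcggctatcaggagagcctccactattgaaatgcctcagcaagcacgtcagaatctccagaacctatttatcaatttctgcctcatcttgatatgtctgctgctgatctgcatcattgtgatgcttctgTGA
Sln: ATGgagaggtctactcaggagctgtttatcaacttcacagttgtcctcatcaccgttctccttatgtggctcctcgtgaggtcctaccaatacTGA
Strit1: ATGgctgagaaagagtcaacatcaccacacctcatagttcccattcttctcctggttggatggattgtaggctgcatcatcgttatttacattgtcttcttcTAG
The frames hold 52 codons before the stop for Pln, 31 for Sln and 34 for Strit1. Phospholamban, from Pln, slows the pump until it is phosphorylated, and sarcolipin, from Sln, slows it in atrial and skeletal muscle. The Strit1 peptide, known as DWORF, competes with these inhibitors and raises pump activity.

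Strit1 and Slc8a1 showed the largest rise and the largest fall of the 10 genes after P7, and the 250 bases before their RefSeq starts (GRCm38.p6) are given for that reason. Capitals mark matches on either strand to an E-box (CANNTG), to AGATAA, the core bound by GATA factors, and to AGGTCA, a nuclear receptor half-site. No 2 marked matches overlap.
Strit1, chr3:63483907-63484156, minus strand: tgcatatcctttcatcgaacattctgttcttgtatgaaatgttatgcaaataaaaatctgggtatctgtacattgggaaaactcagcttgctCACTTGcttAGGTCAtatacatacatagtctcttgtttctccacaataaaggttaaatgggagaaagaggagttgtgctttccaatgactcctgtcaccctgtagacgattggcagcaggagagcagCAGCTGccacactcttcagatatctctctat
Slc8a1, chr17:81738388-81738637, minus strand: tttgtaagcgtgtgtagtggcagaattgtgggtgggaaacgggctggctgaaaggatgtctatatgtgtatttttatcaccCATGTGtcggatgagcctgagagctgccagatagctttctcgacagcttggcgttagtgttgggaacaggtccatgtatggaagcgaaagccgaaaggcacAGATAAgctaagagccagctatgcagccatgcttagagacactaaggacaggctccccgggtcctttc
The Strit1 window held 2 E-boxes and 1 half-site, and the Slc8a1 window held 1 E-box and 1 AGATAA. Of 32851 promoters of the same length, 66.2% held an E-box and 9.99% AGATAA, and 4607 held the half-site, so the E-box is common and the other matches are not rare. Neither window held TATAAA, which 12.4% of promoters held, or the MEF2 and CArG motifs, which 2.92% and 1.47% held. Promoters were matched for 7 of the 10 genes, and none was matched for Atp2a2, Sln and Trdn.

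The pump and phospholamban had the highest TPM of the 10 genes at every age. Atp2a2 (ENSMUSG00000029467, chr5:122453513-122502225, minus strand) encodes SERCA2, the cardiac pump. It had 2275, 2265 and 1758 TPM in P1 WT libraries 1, 2 and 3. In P7 WT libraries 1, 3, 72, 76 and 77 it had 2219, 2414, 2689, 2357 and 2577 TPM. In P21 WT libraries 2, 3, 57 and 60 it had 3548, 3631, 3038 and 3833 TPM. The P21 WT libraries all lay above the P7 WT libraries, while P7 and P1 overlapped. Pln (ENSMUSG00000038583, chr10:53337667-53345987, plus strand) ranged from 2333 to 2951 TPM at P1, from 2338 to 2890 at P7 WT and from 2696 to 3427 at P21 WT, so its neighbouring ages overlapped. The length listed for Pln, 531 bases, is that of the shortest of its 6 annotated transcripts, which reach 2334 bases. Whether that length entered its TPM is not given in the sources used here, and the order of Pln and Atp2a2 depends on it.

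Strit1 (ENSMUSG00000103476, chr3:63481112-63483879, minus strand, under a placeholder name in GENCODE M21) was listed at 0 in all 3 P1 WT libraries. It had 5.77 and 14.5 TPM in P7 WT libraries 1 and 3, and 87.7, 37.4 and 32.5 TPM in libraries 72, 76 and 77. At P21 it had 36.3 and 51.8 TPM in WT libraries 2 and 3, and 158 and 162 TPM in libraries 57 and 60. Libraries with letter titles were the low ones at both ages. Strit1 was the only one of the 10 genes that passed the threshold between title styles (log2 -2.07 for letters minus plain numbers, limma adjusted p = 0.00926), where 0.189% of all tested genes did. Next by p-value was Jph2, at -0.28 (limma adjusted p = 0.122, unadjusted p = 0.000637). Sln (ENSMUSG00000042045, chr9:53850164-53854560, plus strand) was low throughout, from 0 to 15.0 TPM over the 18 libraries.

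**Figure D1:**
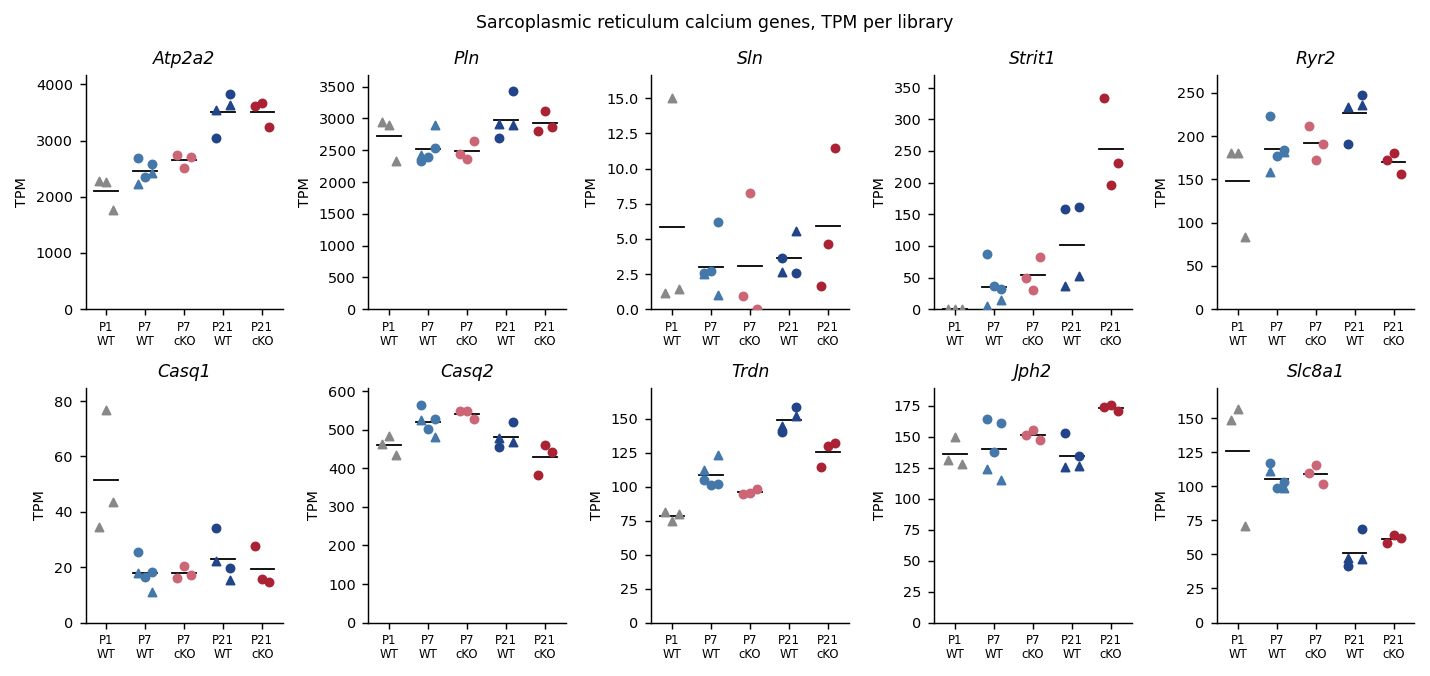
TPM of each of the 10 genes in every library, by group (horizontal axis), each panel with its own vertical axis from 0. Triangles are libraries with letter titles, circles are those with plain numbers, and black bars are group means. Trdn steps up at each age in WT, and Atp2a2 is higher in both P21 groups than in both P7 groups. Slc8a1 is low in both P21 groups, and Strit1 is at 0 in all 3 P1 libraries.

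The release unit had lower TPM than the pump, and its members followed different courses. Ryr2 (ENSMUSG00000021313, chr13:11553102-12106945, minus strand), the release channel, had 180.1, 181 and 83.3 TPM in P1 WT libraries 1, 2 and 3, and the low value was that of the library low in long transcripts. It ranged from 159 to 223 TPM at P7 WT and had 234, 236, 191 and 248 TPM in P21 WT libraries 2, 3, 57 and 60. Casq2 (ENSMUSG00000027861, chr3:102086415-102146514, plus strand), the cardiac calsequestrin that binds calcium inside the store, stayed between 434 and 566 TPM in all WT libraries. Casq1 (ENSMUSG00000007122, chr1:172209894-172219868, minus strand), the calsequestrin of fast skeletal muscle, had 34.6, 76.7 and 43.5 TPM at P1 and from 10.99 to 25.6 TPM at P7 WT. All 3 P1 libraries lay above all 5 P7 WT libraries.

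Trdn (ENSMUSG00000019787, chr10:33080554-33476709, plus strand) encodes triadin, which anchors calsequestrin to the release channel. It had 81.5, 74.5 and 79.7 TPM in the P1 WT libraries. In P7 WT libraries 1, 3, 72, 76 and 77 it had 112, 124, 105, 101 and 102 TPM, and in P21 WT libraries 2, 3, 57 and 60 it had 144, 152, 140.1 and 159 TPM. No WT library of one age overlapped those of another. Jph2 (ENSMUSG00000017817, chr2:163336242-163397993, minus strand), the junctophilin that ties the store to the surface membrane, ranged from 128 to 150 TPM at P1, from 115 to 164 at P7 WT and from 125 to 153 at P21 WT, so all 3 ages overlapped.

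Slc8a1 (ENSMUSG00000054640, chr17:81373105-81738377, minus strand) encodes the sodium-calcium exchanger NCX1. It had 149, 157 and 71.0 TPM in P1 WT libraries 1, 2 and 3, the low one again being library 3. In P7 WT libraries 1, 3, 72, 76 and 77 it had 111, 98.5, 117, 98.6 and 103 TPM. In P21 WT libraries 2, 3, 57 and 60 it had 47.7, 46.9, 41.5 and 68.4 TPM. Every P21 WT library lay below every P7 WT library. Its listed length, 2913 bases, is that of 1 of 6 annotated transcripts of 2017 to 18464 bases, which may bear on its level beside other genes. Whether the use of these transcripts differed between groups was not tested.

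Between P1 and P7 in WT hearts, Strit1 and Trdn rose and Casq1 fell. In limma models over all tested genes, 3 of the 10 genes passed an adjusted p of 0.05, where 28.5% of all genes did (13.8% higher and 14.7% lower). The same 3 genes had no overlap of libraries between the ages, as did 30.9% of all genes. Strit1 rose by a log2 difference of 3.46 (SE 0.40, adjusted p = 2.47e-05) on the log2(TPM + 1) scale, and with P1 listed at 0 no fold change is given. Within the letter titles alone, the difference was 3.36 (adjusted p = 0.00657). Trdn rose by 0.52 (SE 0.08, adjusted p = 0.000175), a 1.44-fold change. Casq1 fell by 1.72 (SE 0.31, adjusted p = 0.000799), to 0.303 of its P1 level. The 13 skeletal muscle markers summed to 53.4 to 74.7 TPM at P1 and 26.7 to 41.5 at P7 WT, and most of the sum at P1 was Myl1, at 41.4 and 18.3 TPM. Of the 5 tested, 4 were lower and 1 was higher (Mybpc2, 5.30 to 10.3 TPM, adjusted p = 0.0127). The muscle regulator Myod1 was at 0 in both groups, and the part of these transcripts in the Casq1 result was not tested. Slc8a1 had a log2 difference of -0.22 (adjusted p = 0.521), which became -0.58 (adjusted p = 0.00969) without P1 WT library 3.

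From P7 to P21 in WT hearts, Atp2a2, Pln, Strit1 and Trdn rose and Slc8a1 fell. These 5 of 10 genes are to be read against 72.5% of all genes called, of which 8.10% of the tested genes were higher and 64.4% lower. Libraries of the 2 ages did not overlap for Atp2a2, Trdn and Slc8a1, and for 60.3% of all genes. The median gene shifted by -0.47 on the log2 scale. TPM is a share of each library, and a gene with no change in TPM lay above most others. Atp2a2 rose by 0.52 (SE 0.09, limma adjusted p = 6.62e-05), a 1.43-fold change, and lay 0.99 above the median gene. With quantile normalization it had 0.32 (adjusted p = 0.062). Strit1 rose by 1.91 (SE 0.32, adjusted p = 6.63e-05). Within the plain titles its difference was 1.73 (adjusted p = 0.00843), and within the letter titles 2.12 (adjusted p = 0.00379). Trdn rose by 0.44 (SE 0.06, adjusted p = 9.54e-06), a 1.36-fold change. Slc8a1 fell by 1.05 (SE 0.19, adjusted p = 0.000121), to 0.484 of its P7 level, and differed from the median gene by -0.58.

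Pln is the least certain of these calls. Its difference was 0.24 (SE 0.09, limma adjusted p = 0.021), and it was 0.14 (adjusted p = 0.136) without P21 WT library 60 and 0.21 (adjusted p = 0.0584) without P7 WT library 1. Quantile normalization turned it to -0.02 (adjusted p = 0.919). Ryr2, Casq1, Casq2 and Jph2 did not pass on the deposited scale, with differences of 0.30, 0.38, -0.11 and -0.02. After median-ratio scaling, which sets the median gene near 0, these 4 had differences of 0.88, 0.93, 0.47 and 0.56 and all passed, so that 8 of the 10 genes were higher and Slc8a1 was lower. On that scale 27.6% of all genes were higher and 26.8% lower. Ryr2 also passed on the deposited scale when P1 WT library 3 was left out of the shared fit (0.30, adjusted p = 0.0109).

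Bulk RNA cannot tell fewer cells of a type from less RNA per cell, and marker genes of several cell types differed over the same weeks. The 8 cardiomyocyte markers summed to 57100 to 62970 TPM in P7 WT and 51380 to 56410 in P21 WT. The 8 fibroblast markers summed to 864 to 1172 TPM at P7 WT and 494 to 621 at P21 WT, with 7 of 8 called lower, where 64.4% of all genes were. After median-ratio scaling 5 were lower and 1 higher, where 26.8% and 27.6% of all genes were. The 8 macrophage markers summed to 87.8 to 101 TPM at P7 WT and 201 to 296 at P21 WT. Of these 7 of 8 were called higher, where 8.10% of all genes were. The part of these cell types in the changes of the 10 genes was not tested.

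**Figure D2:**
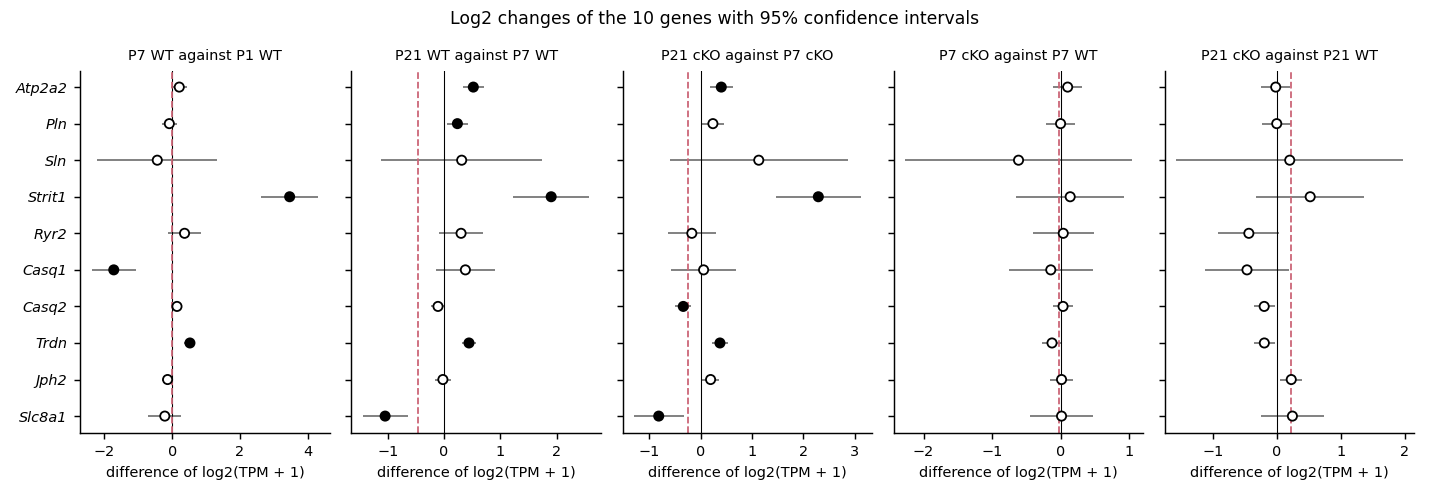
Log2 differences of TPM + 1 (horizontal axes) for the 10 genes (rows) in 5 comparisons, with 95% confidence intervals; filled points passed a limma adjusted p of 0.05 and the red dashed line is the median of all genes tested. Filled points lie in the 3 age comparisons and none in the 2 comparisons of cKO with WT.

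At P7 no difference between knockout and WT hearts passed the test in the 10 genes. The count was 0 of 10 in limma, none had an unadjusted p under 0.05, and 0.0203% of all genes passed, 3 of 14812, with 494 at an unadjusted p under 0.05. Atp2a2 had 2747, 2512 and 2699.7 TPM in P7 cKO libraries 69, 75 and 82, within or just above the WT range, and a log2 difference of 0.10 with a 95% interval from -0.11 to 0.32. For Pln the interval ran from -0.21 to 0.21, for Casq2 from -0.12 to 0.18 and for Jph2 from -0.15 to 0.17. The interval was wide for Sln, from -2.27 to 1.04, and for Strit1, from -0.65 to 0.92. Trdn was the only one of the 10 whose libraries did not overlap at P7, with 94.7, 95.5 and 98.4 TPM in cKO and at least 101 TPM in WT, where 2.73% of all genes lay lower without overlap. Its difference was -0.13 (SE 0.07, adjusted p = 1).

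At P21 the pump and phospholamban were at nearly the same level in knockout and WT hearts, and the release unit showed differences that did not pass the test. Of the 10 genes 0 passed in limma, where 21.3% of all genes did (19.5% higher and 1.77% lower). An unadjusted p under 0.05 was reached by 3 of the 10 and by 5557 of all 14812 genes. With 1 library left out the number of genes passing ran from 1471 (without P21 WT library 57) to 5055 (without P21 WT library 60). Atp2a2 had 3508 ± 233 TPM (SD, n = 3) in cKO and 3512 ± 338 (n = 4) in WT, a log2 difference of -0.02 with a 95% interval from -0.25 to 0.21. Pln had 2928 ± 163 TPM in cKO and 2982 ± 312 in WT, a difference of 0.00 (95% interval -0.23 to 0.23). The median gene was 0.22 higher in the knockout, and relative to it Atp2a2 lay at -0.24 and Pln at -0.22.

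Ryr2, Trdn, Jph2 and Strit1 had no overlap between P21 cKO and P21 WT libraries, where 31.6% of all genes had none (28.5% higher and 3.07% lower in cKO). Ryr2 had 173, 181 and 156 TPM in P21 cKO libraries 55, 59 and 64, all below the lowest WT library at 191. Its log2 difference was -0.44 (SE 0.23, limma adjusted p = 0.166), and it passed at the same size without P1 WT library 3 (adjusted p = 0.0167), a library outside the comparison that widens its shared spread. Trdn had 114, 130 and 132 TPM in cKO and at least 140.1 TPM in WT, with a difference of -0.20 (SE 0.08, adjusted p = 0.0746). It passed without P7 WT library 3 (-0.22, adjusted p = 0.0467). Casq2 had 383, 461 and 443 TPM in cKO and from 456 to 520 in WT, with a difference of -0.20 (SE 0.08, adjusted p = 0.0736).

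Jph2 went the other way on the deposited scale, with 174, 176 and 170 TPM in P21 cKO and at most 153 TPM in WT. All P21 cKO libraries have plain titles. The WT libraries had 125 and 126 TPM with letter titles, and 153 and 134 TPM with plain ones. With title style in the model, the Jph2 difference was 0.23 (SE 0.08, limma adjusted p = 0.0608). It passed without P1 WT library 2 (adjusted p = 0.047), P1 WT library 3 (adjusted p = 0.0468) or P7 WT library 72 (0.24, adjusted p = 0.0468). Relative to the median gene it was at 0.01, and after median-ratio scaling at -0.03 (adjusted p = 0.893), so its direction depends on the scale. Casq2 and Trdn did pass after median-ratio scaling, at -0.46 (adjusted p = 0.00141) and -0.45 (adjusted p = 0.00191), where 9.44% of all genes passed (4.10% higher and 5.33% lower). Strit1 had 333, 197 and 231 TPM in cKO and at most 162 in WT. With title style in the model its difference was 0.52 (SE 0.40, adjusted p = 0.343), and among plain titles alone, 3 cKO against 2 WT libraries, it was 0.63 (adjusted p = 0.378). Slc8a1 had 58.2, 64.2 and 62.2 TPM in cKO, within the WT range of 41.5 to 68.4.

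Marker genes of other cells differed between the P21 groups. The fibroblast markers summed to 741 to 884 TPM in cKO and 494 to 621 in WT, with 8 of 8 called higher, and the endothelial markers to 516 to 563 against 338 to 443, with 6 of 8 higher. Of all genes 19.5% were higher, with a median of 0.22, and after median-ratio scaling 4 of 8 fibroblast and 1 of 8 endothelial markers were. Of the 8 macrophage markers 0 were called, with sums of 187 to 249 TPM in cKO and 201 to 296 in WT. Cardiomyocyte markers summed to 56100 to 59330 TPM in cKO and 51380 to 56410 in WT, with 1 of 8 higher (Mybpc3). Nppa, the atrial natriuretic peptide gene that ventricles also switch on under load, stood at 8176 to 15241 TPM in cKO and 170 to 384 in WT. The part of these genes in the values of the 10 genes was not tested.

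The weeks from P7 to P21 within the knockout gave 5 calls of 10, against 48.4% of all genes (9.36% higher and 39.0% lower), and 7 of 10 without overlap of libraries, against 60.4%. Atp2a2 rose by 0.40 (SE 0.11, limma adjusted p = 0.00539), Strit1 by 2.29 (SE 0.39, adjusted p = 0.000183) and Trdn by 0.38 (SE 0.07, adjusted p = 0.000678). Slc8a1 fell by 0.82 (SE 0.23, adjusted p = 0.00765) and Casq2 fell by 0.34 (SE 0.07, adjusted p = 0.00155). With quantile normalization Atp2a2 (0.23, adjusted p = 0.287) and Slc8a1 (-0.56, adjusted p = 0.0504) missed the threshold. The Casq2 difference was near the shift of the median gene, -0.24, and was -0.04 (adjusted p = 0.678) after median-ratio scaling, where 5 of the 10 genes were higher and 1 lower, with 20.4% and 19.6% of all genes. Pln (0.24, adjusted p = 0.0695) and Jph2 (0.19, adjusted p = 0.0562) missed the threshold. Pln passed without P1 WT library 3 (adjusted p = 0.0347) or P21 WT library 60 (adjusted p = 0.0361). Jph2 passed without P1 WT library 2 (adjusted p = 0.0412) or 3 (adjusted p = 0.0476), P7 WT library 72 (adjusted p = 0.0475) or P21 WT library 60 (adjusted p = 0.0361).

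The interaction of age and genotype, that is the knockout effect at P21 less that at P7, passed in 0 of the 10 genes (limma). Of all genes 7.56% passed (7.04% higher and 0.520% lower). An unadjusted p under 0.05 was reached by 1 of the 10 and by 4361 of all 14812 genes. The 1 gene was Casq2, at -0.23 (SE 0.10, adjusted p = 0.13). After median-ratio scaling it was -0.52 (adjusted p = 0.0107), where 2.37% of all genes passed. Ryr2 had -0.47 (SE 0.29, adjusted p = 0.273) and Jph2 0.21 (SE 0.10, adjusted p = 0.183). The intervals for Atp2a2, from -0.41 to 0.17, and Pln, from -0.29 to 0.29, hold 0.

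Ratios of 2 genes within a library do not move with its scaling. In 27 ratio comparisons, each with an exact two-sided permutation test, the designs cannot give a raw p below 0.0159 to 0.1. With these floors no comparison could pass 0.05 after Benjamini-Hochberg adjustment, whatever its values. That none passed (lowest adjusted p 0.214) is therefore no result about the ratios. Pln to Atp2a2, the inhibitor per pump transcript, was 1.30 ± 0.03 (SD, n = 3) at P1, 1.03 ± 0.12 (n = 5) at P7 WT and 0.850 ± 0.049 (n = 4) at P21 WT. P1 and P7 WT did not overlap (exact p = 0.0357, the smallest possible), and P7 and P21 WT did (exact p = 0.0476), and neither passed after adjustment (0.22 for both). The ratio also differed by title style, which these tests leave out. With letter titles it was 1.10 and 1.20 at P7 WT and 0.820 and 0.797 at P21 WT. With plain numbers it was 0.870, 1.02 and 0.984 at P7 WT and 0.888 and 0.894 at P21 WT. All P1 libraries have letters and all cKO libraries plain numbers. In the knockout the ratio was 0.936 ± 0.044 (n = 3) at P7 and 0.836 ± 0.055 (n = 3) at P21. At P21 the knockout differed from WT by a log2 ratio of -0.02 (exact permutation p = 0.743).

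The ratio of release channel to pump separated the P21 groups with little spread within them. Ryr2 to Atp2a2 was 0.0659, 0.0649, 0.0629 and 0.0646 in P21 WT libraries 2, 3, 57 and 60, and 0.0476, 0.0495 and 0.0483 in P21 cKO libraries 55, 59 and 64. Libraries agreed closely within each group, and the groups did not overlap. Library 63 at P21, which was left out, had 0.07365, above every library of both groups. The means were 0.0646 ± 0.0013 (SD, n = 4) and 0.0485 ± 0.0009 (n = 3), a log2 difference of -0.41. The exact permutation p was 0.0571, the smallest that 3 against 4 libraries allow (adjusted 0.22). At P7 the ratio was 0.0752 ± 0.0047 (n = 5) in WT and 0.0722 ± 0.0042 (n = 3) in cKO, with overlapping libraries (exact permutation p = 0.393).

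Exchanger to pump had a lower mean at each later age in WT. Slc8a1 to Atp2a2 was 0.0584 ± 0.0157 (SD, n = 3) at P1, 0.0432 ± 0.0040 (n = 5) at P7 WT and 0.0145 ± 0.0023 (n = 4) at P21 WT. The last 2 groups did not overlap, with a log2 difference of -1.59 (exact permutation p = 0.0159, the smallest possible, adjusted 0.214). In P21 cKO it was 0.0176 ± 0.0016 (n = 3), overlapping WT (exact permutation p = 0.171). Casq1 to Casq2, the skeletal against the cardiac calsequestrin, was 0.111 ± 0.043 (n = 3) at P1 and 0.0339 ± 0.0080 (n = 5) at P7 WT, without overlap (exact permutation p = 0.0357, the smallest possible, adjusted 0.22). Strit1 to Pln was 0.0875 ± 0.0283 (n = 3) in P21 cKO and 0.0341 ± 0.0224 (n = 4) in P21 WT, without overlap (exact permutation p = 0.0571, the smallest possible), but both low WT values belong to letter titles.

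**Figure D3:**
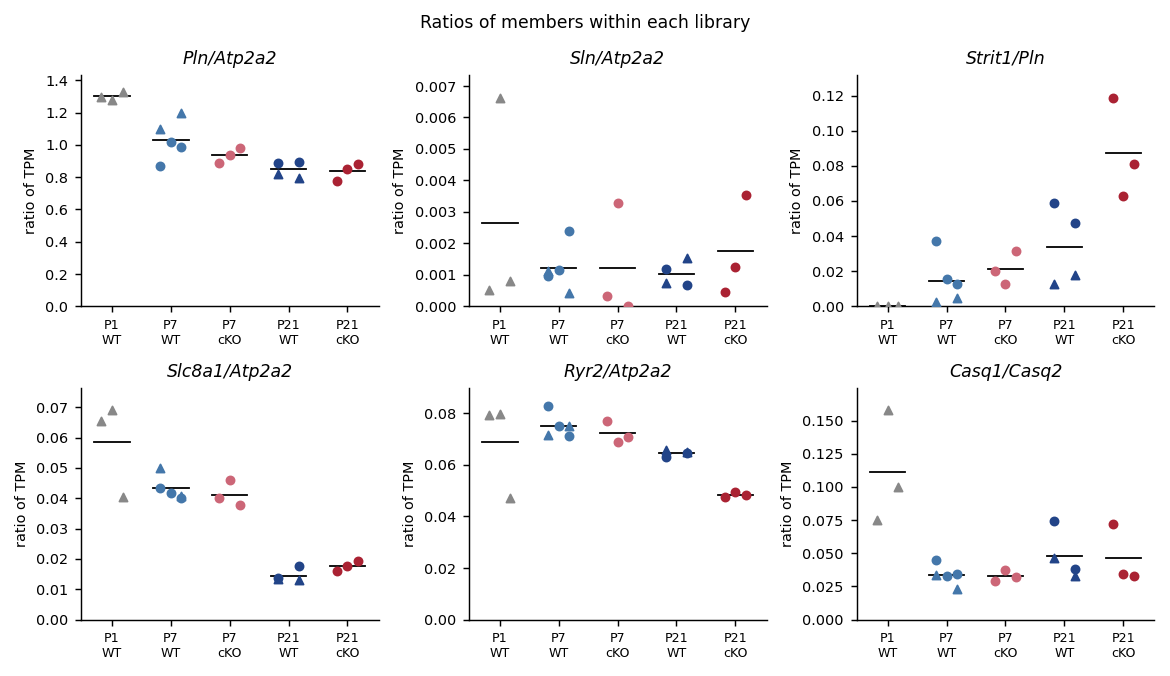
Ratio of the TPM of 2 genes within each library (vertical axes from 0), by group; triangles are letter titles, circles plain numbers and black bars means. Ryr2 to Atp2a2 is near 0.0646 in P21 WT and 0.0485 in P21 cKO, and Slc8a1 to Atp2a2 is lower in both P21 groups than in both P7 groups.

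Sln, the inhibitor of atrial muscle, had group means between 2.998 and 5.92 TPM, with SDs of up to 7.90 TPM. It had 1.18, 15.0 and 1.43 TPM in P1 WT libraries 1, 2 and 3, 0.93, 8.23 and 0 TPM in P7 cKO libraries 69, 75 and 82, and 1.67, 4.63 and 11.5 TPM in P21 cKO libraries 55, 59 and 64. In each of these groups 1 library stood above the others. Myl7, the atrial light chain, had the profile closest to that of Sln among 8973 candidate genes, and the library with the highest Sln was also that with the highest Myl7 in 5 of 5 groups. Myl7 had 132, 637 and 174 TPM in the same P1 libraries, 32.9, 252 and 2.55 in P7 cKO, and 17.7, 55.6 and 135 in P21 cKO. The 10 atrial markers other than Nppa summed to 69.1 TPM in P7 cKO library 82, where Sln was listed at 0, and to 468 TPM in P7 cKO library 75. How much atrium each sample held is not in the labels, and its part in the Sln values was not tested. Without P7 cKO library 75, Sln passed from P7 to P21 in the knockout (2.04, limma adjusted p = 0.0466, against 1.13 and 0.268 with it).

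**Figure D4:**
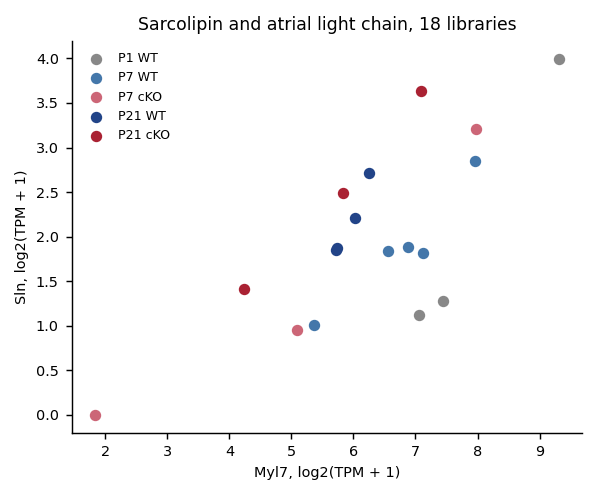
Sln against Myl7 (both log2 of TPM + 1) in the 18 libraries, coloured by group. Within each group the library highest in Myl7 is also highest in Sln, and P7 cKO library 82 is lowest in both.

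For each gene the closest profiles were found by the mean absolute difference of standardised values over the 18 libraries, which share age, genotype and scaling. For Atp2a2 these were Acad11 (0.216 SD) and Slc4a3 (0.226), for Trdn Svip (0.193) and Pkia (0.215), and for Slc8a1 Fto (0.149) and Ubr4 (0.164). For Strit1 they were Mhrt (0.23) and Kcnk3 (0.236). The likeness is less particular for Slc8a1, as the median over all candidates was 0.527 for Slc8a1 and 1.42 for Strit1.

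Other genes of calcium cycling were followed in 7 lists, of 92 genes in all, with 79 tested. Between cKO and WT at P7, 0 of 79 were called (limma), where 0.0203% of all genes were. An unadjusted p under 0.05 was reached by 4 of the 79 and by 494 of all 14812 genes. At P21, 27 of the 79 were called, 21 higher and 6 lower in cKO, where 19.5% of all genes were higher and 1.77% lower. Their median difference was 0.17, against 0.22 for all genes. After median-ratio scaling the split turned to 5 higher and 13 lower, where 4.10% of all genes were higher and 5.33% lower. In the list of SERCA paralogs and regulators 0 were higher and 2 lower of 9, and 4 lower after that scaling. These were Hrc, a calcium-binding protein of the store lumen (310 TPM in cKO, 413 in WT, log2 -0.42, adjusted p = 0.0419), and Mrln, which encodes the inhibitor myoregulin (1.05 and 2.90 TPM, -1.16, adjusted p = 0.038). The median of this list was 0.07. Mrln is best known from skeletal muscle, and the 13 skeletal markers summed to 22 to 34.2 TPM in cKO and 54.5 to 62.1 in WT. In WT most of that sum was Myl1, at 42.6 TPM against 13.1 in cKO. Of the 5 markers tested 1 was higher (Mybpc2, 10.4 TPM in cKO and 4.96 in WT, adjusted p = 0.0128) and 2 lower, with a median of 0.07. The part of these genes in the Mrln value was not tested. Among release channel partners 4 were higher and 2 lower of 14, with a median of 0.31, and 0 were higher and 2 lower after median-ratio scaling. Calm2, a calmodulin gene, was higher by 0.42 (adjusted p = 0.0016) and Sri, which encodes sorcin, by 0.50 (adjusted p = 0.00202). That scaling ended both calls (Calm2 0.17, adjusted p = 0.258, and Sri 0.25, adjusted p = 0.132). Tmem38a, the counter-ion channel of the store, fell by 0.32 (adjusted p = 0.0134).

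The counts of the remaining lists at P21 stand beside 19.5% of all genes higher in cKO and 1.77% lower. After median-ratio scaling these shares were 4.10% and 5.33%. Of 11 genes of the endoplasmic reticulum lumen and of store-operated calcium entry 8 were higher in P21 cKO and 0 lower, with a median of 0.43. After that scaling 2 were higher. They included the chaperone Hsp90b1 (193.5 TPM in cKO and 124 in WT, log2 0.73, limma adjusted p = 0.000408) and the disulfide isomerase Pdia3 (76.8 and 52.4 TPM, 0.58, adjusted p = 0.000674). These proteins are made by most cell types, unlike the calsequestrins. Among kinases and phosphatases 3 were higher and 0 lower of 16 (1 and 1 after that scaling), led by Prkar1a, a regulatory subunit of protein kinase A (340.4 TPM in cKO and 158 in WT, 1.02, adjusted p = 2.29e-05). In dyad and T-tubule genes 1 was higher and 2 lower of 9 (0 and 4 after scaling), with a median of -0.11. The calcium channel subunit Cacna2d1 fell by 0.40 (adjusted p = 0.00612) and Cmya5, which encodes a protein of the dyad, fell by 0.33 (adjusted p = 0.0212). Calcium removal genes had 2 higher and 0 lower of 7 (0 and 1 after scaling). Calcium-dependent transcription genes had 3 higher and 0 lower of 13 (2 and 1 after scaling), with Rcan1, a calcineurin target, at 85.5 TPM in cKO and 34.9 in WT (1.09, adjusted p = 0.00087).

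**Figure D5:**
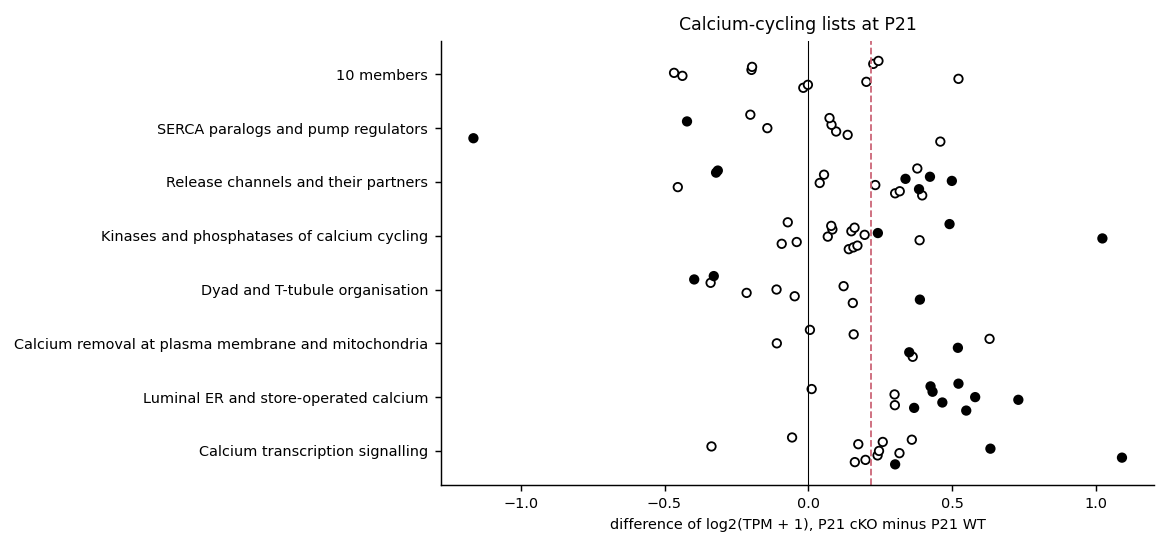
Log2 difference of TPM + 1 between P21 cKO and P21 WT (horizontal axis) for each tested gene of the 10 described and of 7 wider calcium lists (rows, points spread vertically for legibility). Filled points passed a limma adjusted p of 0.05, and the red dashed line is the median of all genes, 0.22. Most genes of the list of endoplasmic reticulum lumen and store-operated calcium lie to its right, and none of the 10 genes is filled.

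Over development the store genes outside the 10 took both directions. From P1 to P7 in WT, 22 of the 79 were higher and 11 lower, where 13.8% of all genes were higher and 14.7% lower, with a median of 0.10. Hrc rose from 90.3 to 172 TPM (log2 0.94, limma adjusted p = 0.000183) and Cmya5 from 11.2 to 19.0 TPM (0.82, adjusted p = 2.2e-05). From P7 to P21 in WT, 8 were higher and 54 lower, where 8.10% of all genes were higher and 64.4% lower, with a median of -0.45 against -0.47 for all genes. After median-ratio scaling 28 were higher and 22 lower, where 27.6% and 26.8% of all genes were. Hrc rose again, to 413 TPM (1.26, adjusted p = 8.47e-08), as did Cmya5, to 58.2 TPM (1.55, adjusted p = 8.77e-11), and S100a1, a calcium sensor that acts on the pump and channel, went from 498 to 719 TPM (0.54, adjusted p = 3.61e-06). Genes that fell included Ppp1r1a, an inhibitor of protein phosphatase 1 (-1.91, adjusted p = 1.16e-08), and Sri (-1.04, adjusted p = 5.18e-09). In the knockout over the same weeks 11 were higher and 31 lower, where 9.36% and 39.0% of all genes were, and median-ratio scaling turned this to 24 higher and 14 lower. The interaction of age and genotype passed in 9 of the 79, all higher, where 7.04% of all genes were higher, among them Prkar1a (1.03, adjusted p = 0.000794), Rcan1 (1.09, adjusted p = 0.0108), Hsp90b1 (0.66, adjusted p = 0.01) and Sri (0.52, adjusted p = 0.0154). After median-ratio scaling 1 was higher and 4 lower. Prkar1a then had 0.75 (adjusted p = 0.000426), while Rcan1 (0.81, adjusted p = 0.0638), Hsp90b1 (0.38, adjusted p = 0.175) and Sri (0.24, adjusted p = 0.348) missed the threshold.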

How the data were processed

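RNA from mouse hearts was measured in 19 libraries, extracted with RNA iso Plus and prepared with a SMARTer mRNA kit, per the labels' protocols. The values deposited by the authors are TPM, with a single value for each gene in each library. TopHat2 2.0.14, Cufflinks 2.2.1 and mm10 are named in the submitters' processing notes. What computed the TPM, and on which annotation, is not given in the sources used here. TPM keep no depth, so the depth is unknown. Other columns hold a gene length and the authors' mean for P21 WT, and 2 further columns belong to no sample of the series.

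Genes that reached 1 TPM in 3 or more libraries (14812 of 56066) were tested as log2(TPM + 1) with limma 3.58.1 (lmFit, eBayes with trend) in R 4.3.3, with version 1.17.8 of data.table. One fit over 18 libraries had terms for group and title style. P-values were adjusted by Benjamini-Hochberg within a comparison, over all genes, with a threshold of 0.05. A fold change is on the log2(TPM + 1) scale and understates the change of low genes. Ratios were tested with exact permutation tests (scipy 1.17.1). The models were tested on simulated data. Median-ratio scaling divides each library by the median of its ratios to the geometric mean over genes above 0 in all libraries. Alternatives also included a minimum of 5 TPM or none, 0.1 as pseudocount, quantile normalization, leaving out mitochondrial and haemoglobin genes, dropping the style term, using 1 title style, array weights, a replicate block, and omitting libraries singly.

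The 10 genes and the lists were chosen with earlier results of these data known. All 10 are named, with up to 4 genes by smallest p per list and comparison, and the 2 closest profiles for each gene. Pdpk1 and Pdk1 were given as a check of the labels, and Myod1 was chosen after its values were seen. Sequences are from GENCODE M21 (coding) and RefSeq GRCm38.p6 (promoters).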

Additional observations from a re-analysis of the deposited data

How the results depend on the processing

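Of 1690 values of the 10 genes over 29 alternatives, 1562 kept their direction and their side of the threshold, 9 lost a call, 41 gained one, 5 reversed and 73 changed sign without a call in either setting, the largest of these by a log2 value of 0.49. Reversed values came from the change of scale from P7 to P21 in WT: Casq2 0.47 and Jph2 0.56 with median-ratio scaling, and Pln -0.018, Casq2 0.23 and Jph2 0.38 with quantile normalization. The cause of other changes was not tested.

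For P21 cKO against WT, 3155 genes became 1398 (median-ratio), 1250 (quantile), 1495 (plain titles only) and 5702 (array weights), and 1471 to 5055 with 1 library left out (1471 without P21 WT 57, 5055 without P21 WT 60, 1667 without P21 cKO 59, 1814 without P21 cKO 64). Of the 10 genes, 2 were called with median-ratio, quantile, without mitochondrial and haemoglobin genes or without the style term, 1 with array weights, and 0 to 2 with 1 library left out. For the interaction, 1120 genes became 351 (median-ratio), 312 (quantile), 674 (mitochondrial and haemoglobin genes removed), 621 (no filter), 102 (plain titles only) and 5212 (array weights), and 357 to 3123 with 1 library left out. It was over 1.5 times higher without P1 WT 3 or P21 WT 60, and as far below without P7 WT 1, 3, 76 or 77, P21 WT 2, 3 or 57, P7 cKO 69 or 82, or P21 cKO 59 or 64. Of the 10 genes, 1 was called with median-ratio and 1 with array weights (Ryr2, -0.55, adjusted p = 0.0328). For P7 cKO against WT, 3 genes became 5 (mitochondrial and haemoglobin genes removed, no style term or plain titles only), 9 (no filter) and 12 (array weights), and 2 to 7 with 1 library left out (5 without P1 WT 1 or P7 cKO 69, 6 without P7 WT 72, 7 without P7 cKO 75). From P1 to P7, 4217 genes became 2266 within letter titles. From P7 to P21, 9 of the 10 genes were called in WT with median-ratio scaling and 3 in the knockout with quantile normalization, where Atp2a2 (0.23, adjusted p = 0.287) and Slc8a1 (-0.56, adjusted p = 0.0504) lost their calls. In WT, Atp2a2 also missed with quantile normalization (0.32, adjusted p = 0.062), and Pln missed with no filter (adjusted p = 0.0608) and within letter titles (0.13, adjusted p = 0.477). The letter-title fit from P7 to P21 was chosen after seeing the data. None of the 27 ratio comparisons passed in any alternative, and none could with so few libraries.

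Deviations of same-numbered libraries from their group means had correlations from -0.117 to 0.165. With so few libraries, these values cannot show whether the numbers pair them, and the labels do not say. The fit with the replicate block called 3152 genes for P21 cKO against WT and 10736 from P7 to P21 in WT, and changed no call of the 10 genes.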

Other observations

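Library 63 at P21, which was in no comparison, had 249.6 TPM of Ryr2, 132 TPM of Jph2, 154 TPM of Trdn, 152 TPM of Strit1 and 522 TPM of Casq2. For Ryr2, Jph2, Trdn and Strit1 the P21 cKO libraries and the P21 WT libraries do not overlap. The Jph2, Trdn and Strit1 values of library 63 lay within the P21 WT range, and its Ryr2 value lay above the highest P21 WT library (248 TPM). The authors' deposited P21 WT mean equals the mean of libraries 57, 60 and 63 within 3.3e-05 TPM.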
